A study of Mus musculus with 13 samples.

Results

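The genes described here carry glucose into the cell, break it down to pyruvate and lactate, or divert it into glycogen and the pentose phosphate pathway. They were listed by function: 38 symbols for transporters, glycolytic enzymes, lactate dehydrogenase subunits, flux regulators, pyruvate dehydrogenase and its kinases, glycogen enzymes and pentose phosphate enzymes. Of these 38 genes, 34 had a probe set of their own on the Gene 1.0 ST array and 35 on the 430 2.0 array. After the lowest 40% of genes by mean level were left out, 31 of the 38 were tested on each array type, among 11963 and 10916 genes in all, and 32 were tested on at least 1 type. A gene that passed only because it was high in 1 group is among these, so the tested genes are not a random draw from the list. Gpi1, Eno1 and G6pdx were not analysed here, and Gapdh was analysed on 430 2.0 alone. Eno2, Pdk2 and Pygl lay below the level filter on both types, and Aldoc did so on 430 2.0.

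The cells were B3, a mouse pre-B line, transduced with retroviral MSCV vectors that also carry an IRES and GFP. On 430 2.0, 2 arrays of cells given HA-tagged wild-type Ikaros, a zinc-finger transcription factor of lymphoid cells, were compared with 2 arrays of cells given the HA-tagged mutant 159A, which is deficient in DNA binding, both taken 48 h after infection. On Gene 1.0 ST, cells carrying HA-Ikaros fused to the ERt2 hormone-binding domain, so that 4-hydroxytamoxifen switches the protein on, were taken after 2 h or 6 h of exposure, and cells carrying ERt2 alone after 6 h, with 3 arrays each. No vector sample with 2 h of exposure and no Ikaros-ERt2 sample without 4-hydroxytamoxifen was analysed here, so at 2 h the difference in transgene and the difference in exposure time cannot be told apart. One label field of vector replicate 1 names the inducible Ikaros construct while its title names the vector. Ikzf1, the Ikaros gene, read 9.16 on that array, beside 9.25 and 9.39 on the other vector arrays and 13.22 to 13.39 on the 6 Ikaros-ERt2 arrays, on the deposited log2 scale. At 48 h both groups carry an Ikaros construct, and Ikzf1 read 11.82 and 11.61 with 159A and 12.00 and 12.08 with wild-type Ikaros. Markers of pre-B cells were present: 9 of the 11 on Gene 1.0 ST and all 10 on 430 2.0 passed the level filter. Their mean log2 level was lower in the Ikaros-ERt2 arrays (8.81 to 8.85 at 2 h, 8.62 to 8.66 at 6 h) than in the vector arrays (8.99 to 9.12), and higher with Ikaros (11.65 to 11.77) than with 159A (11.20 to 11.41) at 48 h. That mean joins markers that went opposite ways: Igll1 averaged 14.89 with 159A and 8.97 with Ikaros and Vpreb1 14.74 and 10.82, while Rag1 averaged 10.11 and 13.48 and Cd79b 12.62 and 14.74. Of markers of other cell types, 0 of 6 myeloid, 1 of 5 T cell, 1 of 3 NK, 1 of 2 erythroid and 3 of 4 fibroblast genes passed the filter on Gene 1.0 ST, where each list averaged 5.83 or less on every array. On 430 2.0, 2 of 6 myeloid, 2 of 5 T cell, 1 of 2 NK, 1 of 2 erythroid and 1 of 4 fibroblast genes passed, and each list averaged 2.25 to 3.64. Between the 48 h groups Lyz2 averaged 4.39 with 159A and 2.65 with Ikaros, and Prf1 averaged 2.81 and 4.10. The part of any of these in the members' values was not tested. The samples were bulk RNA, in which fewer cells expressing a gene and less of its RNA per cell cannot be told apart.

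Glycolysis splits glucose through a chain of cytosolic enzymes and yields ATP, pyruvate and building blocks. Its early control steps are glucose entry by the Glut transporters, trapping of glucose as glucose 6-phosphate by hexokinase, and phosphofructokinase. Lactate dehydrogenase and the monocarboxylate transporters dispose of pyruvate as lactate, pyruvate dehydrogenase sends it to the mitochondria, and the pentose phosphate pathway makes NADPH and ribose. In lymphocytes the pathway is known to rise with growth signals, and many of its genes are known targets of Myc and of the low-oxygen factor HIF-1. Pre-B cells are known to restrict glucose use under B-lineage transcription factors that include Ikaros.

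Among the members tested, 17 of 32 were called in at least 1 of 4 comparisons (limma, Benjamini-Hochberg adjusted p under 0.05 over all genes of the array type, the meaning of called throughout). The share of all genes called in at least 1 comparison was not computed. By comparison, 1.86% of all genes were called at 2 h, 5.78% at 6 h, 0.903% at 6 h over 2 h and 14.8% at 48 h. At 48 h 12 members were called. Hk2 was called in 3 comparisons, and Slc2a1, Slc2a3 and Gys1 in 2 each. For 3 of these 4 genes a promoter sequence was available, and the 250 bases upstream of the RefSeq start are shown. The genes were picked because they were called in the largest number of comparisons. In Ikaros-ERt2 cells each was lower at 2 h than in the 6 h vector cells, and higher at 6 h than at 2 h. The sequences were read 5′ to 3′ on the gene's strand in GRCm38.p6. Capitals mark matches, on either strand, to ACGTG, a form of the HIF-1 recognition core, which reads CACGT where it lies on the opposite strand. Forms of that core with another first base were not searched and are not marked. The Slc2a1 window is chr4:119108495-119108744 (plus strand), that of Hk2 is chr6:82774455-82774704 (minus strand) and that of Gys1 is chr7:45434589-45434838 (plus strand).
Slc2a1: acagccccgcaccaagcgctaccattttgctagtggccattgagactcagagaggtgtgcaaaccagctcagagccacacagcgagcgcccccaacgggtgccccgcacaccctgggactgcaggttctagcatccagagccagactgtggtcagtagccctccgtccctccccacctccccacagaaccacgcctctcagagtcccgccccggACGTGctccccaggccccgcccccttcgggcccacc
Hk2: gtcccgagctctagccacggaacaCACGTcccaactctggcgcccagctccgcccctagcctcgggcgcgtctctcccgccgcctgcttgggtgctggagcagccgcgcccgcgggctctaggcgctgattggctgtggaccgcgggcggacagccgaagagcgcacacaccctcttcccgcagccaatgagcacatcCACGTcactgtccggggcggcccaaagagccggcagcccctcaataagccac
Gys1: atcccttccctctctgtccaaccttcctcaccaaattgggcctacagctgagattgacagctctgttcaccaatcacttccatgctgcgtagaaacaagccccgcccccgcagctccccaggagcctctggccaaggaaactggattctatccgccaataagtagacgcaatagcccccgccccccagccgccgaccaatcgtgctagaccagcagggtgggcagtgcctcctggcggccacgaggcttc
Slc2a1 holds 1 match, 36 to 32 bases upstream of the start, and Hk2 holds 2, at 226 to 222 and 52 to 48 bases upstream on the opposite strand. Gys1 holds none in these 250 bases. Over 54 promoter entries of 37 members, 38.9% hold ACGTG, beside 16.6% of all 32851 entries. The E-box CACGTG, which contains ACGTG and is bound by Myc with Max, is in 11.1% of the members' entries and 6.02% of all. TGGGAA, a core of Ikaros recognition sites, is in 20.4% of the members' entries and 21.6% of all. These matches are letters in a window, not bound sites, and entries of 1 gene can overlap.

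After 2 h of 4-hydroxytamoxifen, Slc2a1, Slc2a3, Hk2 and Gys1, which encode glucose transporters, a hexokinase and a glycogen synthase, stood below the vector level in cells with Ikaros-ERt2. Slc2a1 and Hk2 were lower by more than 2-fold, and Slc2a3 and Gys1 were lower by less. In all, 4 of 31 members were called lower (12.9%) and 0 higher, where 1.86% of all genes were called, 1.1% lower and 0.769% higher. The median log2 change was -0.16 over members and -0.01 over all genes tested, and 23 of 31 members were negative. On 15 members (48.4%) the 3 Ikaros-ERt2 arrays all lay below the 3 vector arrays, which held for 9.4% of all genes, and 1 member lay wholly above, which held for 9.23%. The median member stood -0.27, -0.14 and -0.08 from the vector mean on 2 h replicates 1, 2 and 3, and -0.09, 0.06 and 0.08 on the 6 h replicates. The vector arrays themselves ran from -0.03 to 0.06, so 2 h replicate 3 did not stand below 6 h replicate 1 in this measure.

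Slc2a1 encodes Glut1, the main basal glucose transporter of growing cells. Its log2 values were 10.24, 10.24 and 10.35 in vector cells, 9.16, 9.56 and 8.92 at 2 h and 10.20, 10.54 and 10.60 at 6 h. The 2 h arrays lay apart below both other groups, which overlapped each other. The 2 h change was -1.07 ± 0.15 (SE, n = 3 arrays per group; 2.10-fold lower, limma adjusted p = 0.0051). Slc2a3, encoding the high-affinity transporter Glut3, read 8.70, 8.80 and 8.58 in vector cells, 8.29, 8.17 and 8.29 at 2 h and 8.55, 8.87 and 8.76 at 6 h. The same order of groups was seen, with a smaller 2 h change of -0.44 ± 0.09 (1.36-fold lower, limma adjusted p = 0.0383). This call was lost in 6 of the 9 fits that left out 1 array.

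Hk2, the inducible hexokinase bound to mitochondria, read 8.99, 8.96 and 9.06 in vector cells, 7.66, 8.02 and 7.83 at 2 h and 8.39, 8.82 and 8.80 at 6 h. All 2 h arrays lay below all others, and here the 6 h arrays also lay below the vector arrays. The 2 h change was -1.17 ± 0.12 (2.24-fold lower, limma adjusted p = 0.00114). Hk1, the constitutive hexokinase, read 12.95, 13.16 and 12.95 in vector cells and 12.95, 12.95 and 12.93 at 2 h, a change of -0.08 with a 95% interval of -0.25 to 0.09. These Hk1 values are from the higher of 2 probe sets. At 2 h the other averaged 7.95, beside 12.94 for the one used, and changed by -0.05. It changed by 0.06 at 6 h (-0.12 for the one used) and by 0.10 at 6 h over 2 h (-0.04). Which of the 2 better measures Hk1 was not tested. Gys1, the glycogen synthase of non-liver tissues, read 8.18, 8.28 and 8.35 in vector cells, 7.84, 7.77 and 7.80 at 2 h and 8.37, 8.45 and 8.32 at 6 h. Its 2 h arrays were tightly grouped below the vector arrays, a change of -0.47 ± 0.07 (1.38-fold lower, limma adjusted p = 0.0081).

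**Figure D1:**
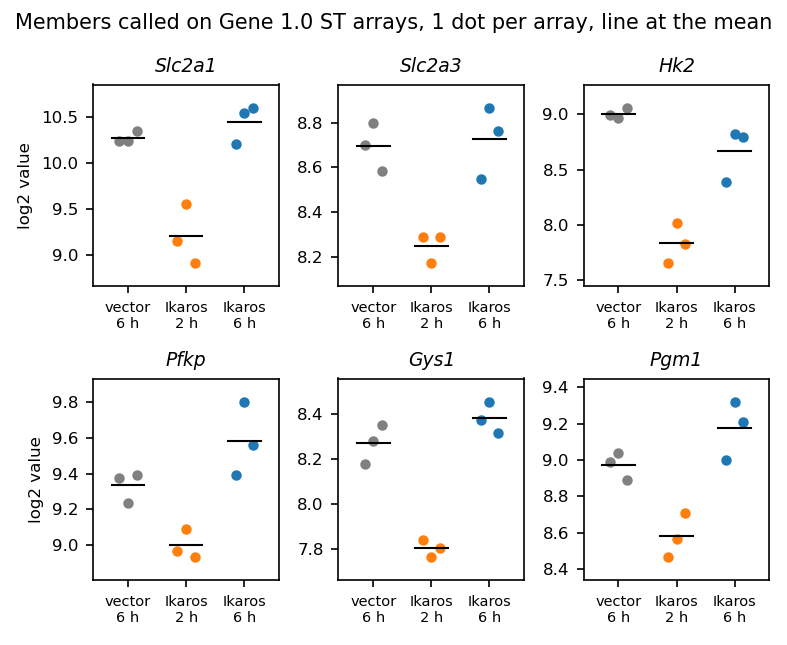
Deposited log2 values of the 6 members called in a comparison on Gene 1.0 ST arrays, for vector-ERt2 at 6 h and Ikaros-ERt2 at 2 h and 6 h (x axis); each dot is 1 array, the line is the mean of 3 arrays, and each panel has its own axis that does not start at 0. In all 6 panels the 2 h arrays lie below every vector and every 6 h array, as for Slc2a1 with 8.92 to 9.56 at 2 h against 10.24 to 10.35 in vector cells. Choosing genes that were called favours this separation, so it adds no support to the calls. Over all genes, 9.4% lay wholly lower at 2 h than in vector cells and 7.9% wholly higher at 6 h than at 2 h.

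The remaining glycolytic enzymes showed smaller 2 h values in 1 direction without being called. All 8 members tested from hexokinase to triosephosphate isomerase were negative, with 1 called, and all 3 of the later enzymes tested, Pgk1, Pgam1 and Pkm, were negative with none called. Aldoa (aldolase A) changed by -0.42 (limma adjusted p = 0.123), Tpi1 (triosephosphate isomerase) by -0.36 (0.224), Pgk1 (phosphoglycerate kinase) by -0.36 (0.229) and Pkm (pyruvate kinase) by -0.26 (0.37). The other probe set of Pkm gave -0.41 at 2 h, and -0.05 at 6 h beside 0.03 for the one used. Of 7 other probe sets of 5 members on this array type, 6 had the sign of the one used at 2 h and 5 at 6 h. Ldha, the lactate dehydrogenase subunit that dominates in glycolytic cells, changed by -0.25 (0.241), and Ldhb by 0.10 (0.63). The monocarboxylate exporter Slc16a3 (MCT4) had the lowest value of any member, -1.31 ± 0.35, but its 2 h arrays were spread at 6.70, 8.33 and 7.99 beside 8.76, 8.97 and 9.23 in vector cells, and it was not called (limma adjusted p = 0.0936). The uncalled members with the smallest p were Txnip (-0.48, adjusted p = 0.0554), whose protein restrains glucose uptake, and the phosphoglucomutase Pgm1 (-0.39, 0.068). For glycogen, 1 of 3 members was called, and Ugp2, outside the list, which makes the UDP-glucose used by glycogen synthase, was not called at 0.37 (0.186). None of the 3 pentose phosphate enzymes tested was called, and their changes ran from -0.06 to 0.21.

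After 6 h, none of the 31 members was called against the vector, where 5.78% of all genes were, 2.58% higher and 3.2% lower. In the same limma fit 5 of 31 members had an unadjusted p under 0.05, as had 2130 of all 11963 genes. Of the 31, 16 were positive and 15 negative, with a median of 0.01 (-0.00 over all genes), and all changes lay between -0.38 and 0.28. The Ikaros-ERt2 arrays lay wholly below the vector arrays for 2 members and wholly above for 1, beside 10.3% and 11% of all genes. The 95% interval of every member lay within 2-fold either way, and that of 28 within 1.5-fold. Slc2a1 changed by 0.17 (interval -0.16 to 0.50), Slc2a3 by 0.03, Gys1 by 0.11 and Hk2 by -0.33 (interval -0.60 to -0.06, limma adjusted p = 0.161). The smallest p belonged to Txnip, which read 9.62, 9.81 and 9.87 in vector cells, 9.20, 9.27 and 9.38 at 2 h and 9.15, 9.44 and 9.56 at 6 h, a 6 h change of -0.38 (adjusted p = 0.0723). Next was Pfkfb4, a bifunctional enzyme that sets the level of fructose 2,6-bisphosphate, at 0.28 (0.107). Without Ikaros-ERt2 6 h replicate 1 Pfkfb4 was called (0.38, adjusted p = 0.0392), and without replicate 3 Txnip was (-0.47, 0.0389).

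Within the Ikaros-ERt2 cells, 6 members stood higher at 6 h than at 2 h and none lower. These 6 (19.4% of 31) compare with 0.376% of all genes called higher, 0.527% called lower and 0.903% called in either direction. The median log2 change was 0.18 (0.01 over all genes), 23 of 31 members were positive, and on 9 (29%) the 6 h arrays all lay above the 2 h arrays, which held for 7.9% of all genes, while 1 lay wholly below, which held for 6.91%. This comparison uses the same 2 h arrays as the one against the vector, so a low 2 h value enters both. It is also the test of whether the 6 h and 2 h changes over the vector differ.

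Slc2a1 rose by 1.24 ± 0.15 on the log2 scale (2.36-fold, limma adjusted p = 0.00896), Hk2 by 0.83 ± 0.12 (1.78-fold, 0.0176), Gys1 by 0.58 ± 0.07 (1.49-fold, 0.00947) and Slc2a3 by 0.47 ± 0.09 (1.39-fold, 0.0436). The other two called were not called at 2 h against the vector. Pfkp, the platelet-type phosphofructokinase, read 9.37, 9.23 and 9.39 in vector cells, 8.97, 9.09 and 8.94 at 2 h and 9.39, 9.80 and 9.56 at 6 h. It rose by 0.59 ± 0.10 (1.5-fold, adjusted p = 0.0294). Pgm1, which interconverts glucose 1-phosphate and glucose 6-phosphate on the way to glycogen, read 8.99, 9.04 and 8.89 in vector cells, 8.47, 8.56 and 8.71 at 2 h and 9.002, 9.32 and 9.21 at 6 h. It rose by 0.60 ± 0.10 (1.51-fold, adjusted p = 0.0243). By role, 2 of 4 transporters, 2 of 8 upper glycolytic enzymes and 2 of 3 glycogen genes were called. Slc16a3 was not called at 1.27 ± 0.35 (adjusted p = 0.129), nor was Aldoa at 0.40 (0.163).

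These 6 calls depend on how the spread is estimated. With the vector arrays left out of the fit, 0 of 31 members and 0 of all genes were called by limma. In that fit 9 members had an unadjusted p under 0.05, as had 1301 of all 11963 genes. Leaving out 1 array gave 1 to 6 calls: 1 without 2 h replicate 1, 3 without replicate 2 and 2 without replicate 3, 2 without 6 h replicate 3, and 3 without vector replicate 1 or without vector replicate 2.

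Some genes outside the list that are known to respond to low oxygen were also low at 2 h. Bnip3, a mitophagy gene, read 10.12, 10.41 and 10.26 in vector cells, 8.52, 8.98 and 9.27 at 2 h and 9.96, 10.58 and 10.52 at 6 h. Its changes were -1.34 at 2 h (limma adjusted p = 0.0065), 0.09 at 6 h and 1.43 at 6 h over 2 h (0.0158). Ankrd37 (-0.83, adjusted p = 0.0255) and the repressor Bhlhe40 (-0.70, 0.0219) were likewise lower at 2 h, and the oxidoreductin Ero1a was not called there (-1.10, 0.0629). At 6 h over 2 h all 3 were called higher, at 1.03, 0.90 and 1.47. Among other oxygen-response genes examined, Egln1 was not low at 2 h: it averaged 8.40 in vector cells, 8.36 at 2 h and 8.65 at 6 h. Egln3 lay below the level filter. Hif1a, which encodes the oxygen-regulated HIF-1 subunit, was not lower: it changed by 0.25 at 2 h (0.139) and rose by 0.44 at 6 h (0.00658). Myc was below the vector at both times. It read 10.56, 10.56 and 10.84 in vector cells, 9.17, 9.15 and 9.66 at 2 h and 9.02, 9.15 and 9.40 at 6 h. Its changes were -1.32 at 2 h (limma adjusted p = 0.00167) and -1.46 at 6 h (4.4e-04). The culture density or oxygen supply of the samples is not given in the sources used here, and the part of any of these in the members' values was not tested.

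At 48 h, wild-type Ikaros cells had lower transcripts along most of glycolysis than 159A cells, much lower Fbp1, and higher Slc16a1, Txnip and Pdha1. Of 31 members, 9 were called lower (29%) and 3 higher (9.68%), where 14.8% of all genes were called, 8.47% lower and 6.38% higher. The median log2 change was -0.61 over members and 0 over all genes, 24 of 31 members were negative, and 15 differed by at least 2-fold. On 18 members (58.1%) both Ikaros arrays lay below both 159A arrays, which held for 30% of all genes, and on 4 above, which held for 27.7%. The median member stood -0.59 and -0.83 from the 159A mean on the 2 Ikaros arrays.

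Of the 7 upper enzymes tested, 4 were called lower, and all 7 values were negative. Hk2 read 10.53 and 11.06 with 159A and 8.44 and 8.15 with Ikaros, the largest fall in the chain at -2.50 ± 0.26 (SE, n = 2 arrays per group; 5.67-fold lower, limma adjusted p = 0.0348). The liver-type phosphofructokinase Pfkl read 9.83 and 9.44 against 8.07 and 7.84 and fell by 1.68 ± 0.20 on the log2 scale (3.21-fold, 0.0395). Aldoa read 13.50 and 13.51 against 12.22 and 12.17 and fell by 1.31 ± 0.06 (2.47-fold, 0.0194). Tpi1 read 13.93 and 13.77 against 12.33 and 12.47 and fell by 1.45 ± 0.11 (2.72-fold, 0.0255). For these 4 enzymes the arrays of the 2 groups did not overlap, and the gap between groups was wider than that between arrays of a group. Choosing genes that were called favours both. Pfkp was not called at -1.77 (adjusted p = 0.076), nor the muscle-type Pfkm at -0.40 (0.086). Hk1 read 11.25 and 9.56 against 10.73 and 9.44, so widely spread that its change of -0.32 had an interval of -3.30 to 2.66.

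The lower enzymes showed the same direction. All 4 tested were negative and 3 were called. Gapdh, glyceraldehyde 3-phosphate dehydrogenase, read 15.02 and 14.91 with 159A and 13.95 and 13.97 with Ikaros and fell by 1.01 ± 0.07 (2.01-fold, limma adjusted p = 0.0254). Pgk1 read 14.34 and 14.42 against 13.53 and 13.47 and fell by 0.88 ± 0.07 (1.84-fold, 0.0274). Pkm read 12.41 and 12.09 against 11.08 and 10.86 and fell by 1.28 ± 0.17 (2.44-fold, 0.0467). Each pair of Ikaros arrays lay below its pair of 159A arrays. The phosphoglycerate mutase Pgam1 (-0.68, adjusted p = 0.0611) and Ldha (-2.19 ± 0.35, 0.0595) were not called. Ldha had the second lowest value of the glycolytic chain, with 13.61 and 12.81 on the 159A arrays, which lay far from each other, and 11.14 and 10.91 with Ikaros.

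The flux regulators gave the extreme values in both directions, while pyruvate dehydrogenase and its kinases ran from -1.17 to 1.01. Fbp1, the fructose 1,6-bisphosphatase that runs against phosphofructokinase, read 12.22 and 12.04 with 159A and 4.85 and 4.27 with Ikaros, a fall of 7.57 ± 0.27 on the log2 scale (190-fold, limma adjusted p = 0.018). The Ikaros values lay above the level counted as near the array's floor, 1 log2 unit over the lowest value of the table. On Gene 1.0 ST the same gene read 5.71 to 6.51 on all 9 arrays and was not called at 2 h (0.06) or 6 h (-0.17). Txnip read 12.27 and 12.06 with 159A and 14.58 and 14.09 with Ikaros, and rose by 2.17 ± 0.23 (4.51-fold, 0.0354). The Ikaros-ERt2 values of Txnip were below the vector instead, at -0.48 after 2 h and -0.38 after 6 h, uncalled, and the 2 array types have no test across them. Pdha1, the catalytic subunit of pyruvate dehydrogenase, read 11.28 and 11.30 against 12.30 and 12.29 and rose by 1.01 ± 0.06 (2.02-fold, 0.0217). Pdk1, a kinase that switches that enzyme off, was not called at -1.17 (0.0936), and Pdk3 was not at -0.57 (0.247).

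**Figure D2:**
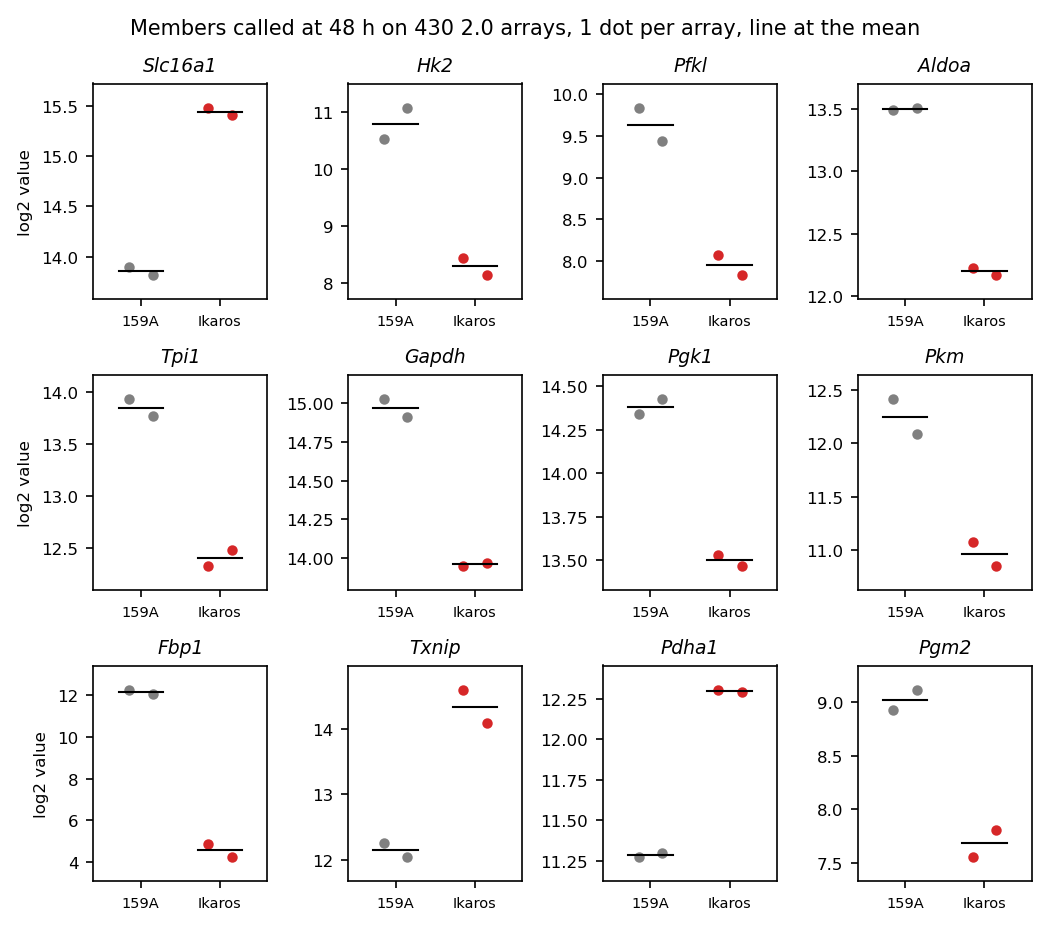
Deposited log2 values of the 12 members called at 48 h on 430 2.0 arrays, 159A in grey and wild-type Ikaros in red (x axis); each dot is 1 array, the line is the mean of 2 arrays, and the panels have separate axes that do not start at 0. Slc16a1, Txnip and Pdha1 are higher with Ikaros and the other 9 lower, with the widest gap for Fbp1, from 12.22 and 12.04 to 4.85 and 4.27.

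Transporters diverged at 48 h. Slc16a1, the monocarboxylate transporter MCT1, read 13.90 and 13.82 with 159A and 15.47 and 15.41 with Ikaros and rose by 1.58 ± 0.07 (2.99-fold, limma adjusted p = 0.0192). The other lactate exporter, Slc16a3, lay near the floor in both groups, at 3.21 and 2.44 against 2.21 and 2.21, and has no measurable size there; Ldhb and Pfkfb4 were also near the floor. Slc2a1 read 11.40 and 12.37 with 159A and 9.96 and 10.80 with Ikaros. Its arrays did not overlap, but the spread within each group left a change of -1.50 with an interval of -3.31 to 0.31 (0.196). Slc2a3 changed by -0.30 (0.619). Of the glycogen genes, Pgm2 read 8.93 and 9.11 against 7.56 and 7.81 and fell by 1.33 ± 0.14 (2.52-fold, 0.0351). Gys1 (-0.37, 0.441) and Pgm1 (-0.07, 0.732), which moved between 2 h and 6 h, were not called. None of the 3 pentose phosphate enzymes was called: Tkt (transketolase) changed by -0.76 (0.104), Taldo1 (transaldolase) by 0.38 (0.126) and Pgd (6-phosphogluconate dehydrogenase) by 0.05 (interval -0.44 to 0.55). Other probe sets of Tkt gave -1.41 and, near the floor with Ikaros, -0.54.

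Other probe sets of the same genes gave the same direction at 48 h. Among 16 genes with more than 1 usable probe set, 26 of 28 other probe sets had the sign of the one used, and all 22 did where that one changed at least 1.5-fold; they share the same arrays and are no further replicates. The 3 of Slc2a1 gave -1.50, -1.45 and -1.52, those of Pdk1 gave -1.12 to -1.77, and those of Txnip 2.17 and 3.13. The exceptions were 2 probe sets of Pgd, with all 4 of its values between -0.13 and 0.05. The Aldoa, Pgk1, Tkt and Pgd probe sets used are of a class whose probes may match near copies of the gene. For Pgk1, the probe set outside that class gave -1.35, beside -0.88 for the one used. For Tkt, those outside it gave -1.41 and -0.54, beside -0.76 for the one used. The Gapdh probe sets are the array's own controls along the transcript, and gave -1.01 at the 3′ end, -1.50 in the middle and -1.69 at the 5′ end. Signal of the 3′ over the 5′ set, which widens with RNA degradation or shorter amplified product, was 3.42 and 2.35 on the log2 scale with 159A and 4.46 and 2.67 with Ikaros (replicates 1 and 2). For actin the gaps were 3.29 and 2.69 with 159A and 3.64 and 2.47 with Ikaros, so replicate 1 had the wider gap in both groups. The part of this in the members' values was not tested.

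**Figure D3:**
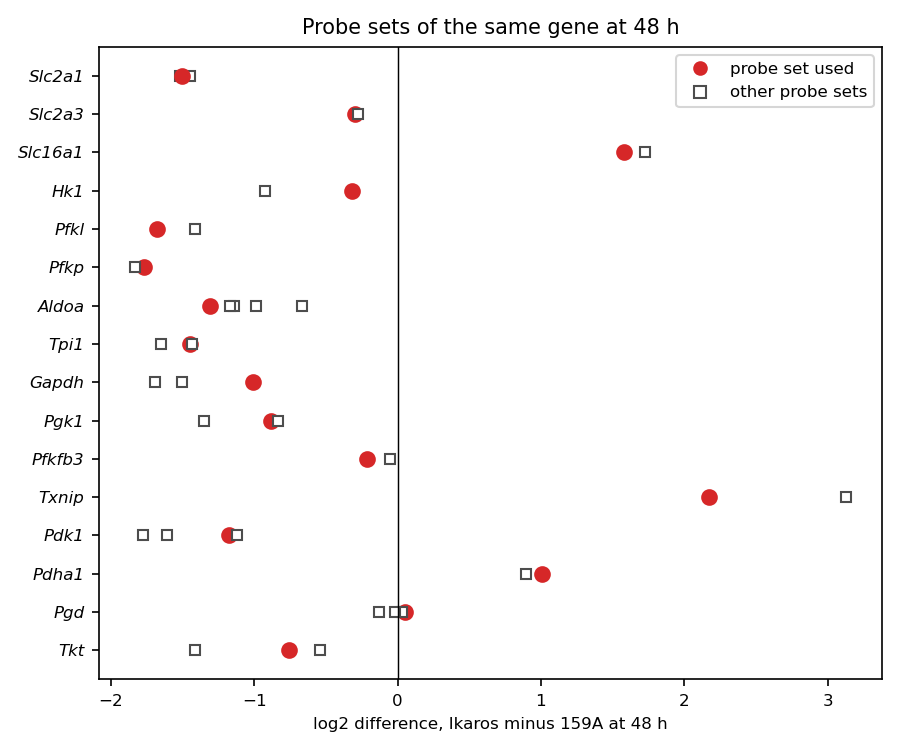
Difference in mean log2 value, Ikaros minus 159A at 48 h (x axis), for each probe set of the 16 members with more than 1 usable probe set (y axis); red circles are the probe sets used, open squares the others, each from 2 arrays per group. All open squares lie on the side of the red circle except 2 of Pgd, whose values are near 0.

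Counts at 48 h rest on 2 arrays per group. With no level filter 3 members were called (Slc16a1, Pdha1 and Aldoa), and with any 1 array left out, so that 1 group was a single array assumed to vary like the other, 0 were. With replicate number, along which the 3′ to 5′ gap differed, as a block, limma called 0 of 31 members and 0 of all genes. In that fit 19 members had an unadjusted p under 0.05, as had 4493 of all 10916 genes. The arrays of the 2 groups did not overlap for any of the 12 members called without the block. With 2 arrays per group a call favours such separation, so it adds no support to the calls. Over all genes tested, 30% lay wholly lower and 27.7% wholly higher with Ikaros. No scan date or slide is given in the sources used here, so a batch could not be checked.

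Of the 4 members called lower at 2 h, all 4 were called higher at 6 h over 2 h, on shared arrays, and 1, Hk2, was called lower at 48 h. Of 30 members tested in both, 20 were negative at 2 h and at 48 h, and 13 were negative at 6 h and at 48 h. Taken singly, 23 of 31 members were negative at 2 h, 15 of 31 at 6 h and 24 of 31 at 48 h. The same shares over all genes were not computed, so these counts do not measure agreement between the times. Enzyme families also differed in which gene was called. Hk2 was called and Hk1 was not in 3 comparisons. Among phosphofructokinases, Pfkp was called at 6 h over 2 h and Pfkl at 48 h, while Pfkm was not called. Pgm1 was called at 6 h over 2 h (0.60, beside 0.01 for Pgm2) and Pgm2 at 48 h (-1.33, beside -0.07 for Pgm1). Whether family members differ from each other was not tested. Aldoc read 4.91 to 5.47 on Gene 1.0 ST and was not called, and Pfkfb2 and Pfkfb3 were called in no comparison.

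**Figure D4:**
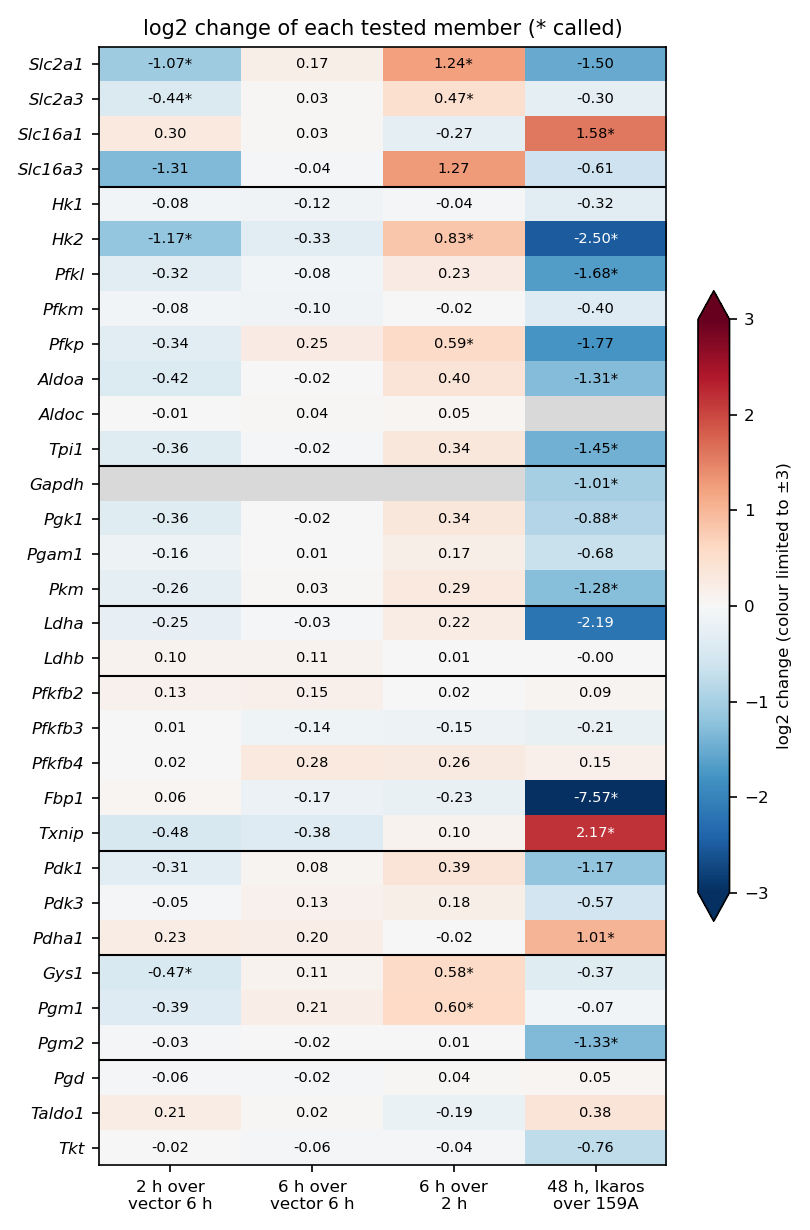
The log2 change of each member tested (rows, grouped by role between the black lines) in the 4 comparisons (columns); an asterisk marks a call at limma adjusted p under 0.05, colour runs from blue (lower) to red (higher) and is limited to 3 either way, and grey cells were not tested. The 2 h column is mostly blue, the 6 h column near 0 with values from -0.38 to 0.28, the third mostly red, and the 48 h column has 9 lower and 3 higher calls.

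Of 53 further genes of these pathways, outside the list, 36 were tested on Gene 1.0 ST and 30 on 430 2.0. At 2 h limma called 0 of 36, beside 1.86% of all genes. Of the 36, 8 had an unadjusted limma p under 0.05, as had 1691 of all 11963 genes. At 6 h limma called 1 (2.78%, beside 5.78% of all genes), the urate and hexose transporter Slc2a9, which was lower by 0.60 (adjusted p = 0.00186). At 6 h over 2 h it called 1 (2.78%, beside 0.903% of all genes), the mitochondrial pyruvate carboxylase Pcx, which rose by 0.31 (0.0469). At 48 h it called 4 of 30 (13.3%, beside 14.8% of all genes). Eno3, the muscle-type enolase, fell by 2.56 (0.0182) and Pcx by 1.87 (0.022), while Bpgm, the 2,3-bisphosphoglycerate mutase, rose by 1.13 (0.0469) and the phosphorylase kinase subunit Phkg2 by 0.43 (0.046).

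Among known regulators at 48 h, Myc read 12.19 and 12.01 with 159A and 9.29 and 9.18 with Ikaros and fell by 2.86 (limma adjusted p = 0.018). Mlxip (MondoA), a glucose-sensing factor known to drive Txnip, rose by 1.49 (0.0312) and had changed by 0.09 at 2 h and 0.02 at 6 h. Foxo1, a factor restrained by growth signalling, rose in all 3 Ikaros comparisons with a control, by 0.67 at 2 h (0.0175), 0.85 at 6 h (0.00201) and 1.78 at 48 h (0.04). Arnt, the constitutive HIF partner, rose by 1.38 (0.0366) and Prkaa1, a catalytic subunit of the energy sensor AMPK, by 1.24 (0.047). Of Bnip3, Ankrd37, Bhlhe40 and Ero1a, described above at 2 h, Ero1a fell by 1.38 at 48 h (0.0496). The other three were negative without being called: Bhlhe40 at -1.08 (0.167), Ankrd37 at -2.20 (0.391), with an interval of -6.71 to 2.31, and Bnip3 at -0.04 (0.755). Their part in the members' values was not tested.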

How the data were processed

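RNA was hybridised to 13 Affymetrix arrays, 4 of 430 2.0 (two-cycle amplification) and 9 of Gene 1.0 ST (whole-transcript amplification), per the labels' protocols. The deposited values are log2 levels per probe set made by the authors. GCRMA, RMA, affy and limma are listed in the submitters' processing notes, without saying which normalization served which type. Their versions were not given in the sources used here. At 430 2.0's floor lay 36.7% of its values, and changes near it have no exact size. The types were normalized separately and never compared in level.

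Genes were named from the platform annotation, using probe sets with 1 symbol. The probe set with the highest mean stood for a gene, and the lowest 40% of genes were left out. limma 3.58.1 in R 4.3.3 (lmFit, eBayes, two-sided, Benjamini-Hochberg over all genes tested, threshold 0.05) tested 4 comparisons, 3 of them from 1 fit of the 9 Gene 1.0 ST arrays, whose contrasts against the vector share its arrays. Errors after a change are standard errors of the fit. The fit was tested on simulated data. The labels call samples biological replicates without saying that cultures were separate, so the spread behind each p-value is that between these arrays, which may be technical, and their number limits precision.

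Members, lists and rules were chosen with earlier results of these data known. Named in full are members called in any comparison, then the 2 uncalled ones with the smallest p per comparison, isozyme families, and called genes of the other lists. Promoter sequences are from RefSeq (GRCm38.p6); 37 of 38 members matched. Alternatives covered the filter, normalization, eBayes options, probe set choice, samples in the fit, a replicate block and leaving out each array.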

Additional observations from a re-analysis of the deposited data

Results flagged for a closer look

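The change over the vector differed between 6 h and 2 h for 6 of 31 members (19.4%), where 0.903% of all genes were called. This is the comparison of 6 h over 2 h given above, and a fit of only those 2 groups called 0 of all genes. By limma's test of the difference (6 h minus 2 h, log2), Slc2a1 differed by 1.24, Hk2 by 0.83, Pgm1 by 0.60, Pfkp by 0.59, Gys1 by 0.58 and Slc2a3 by 0.47. All 3 arrays at 6 h lay above all 3 at 2 h for each of these genes, as for 7.9% of all genes. Choosing genes that were called favours this. The 2 h and 6 h cells were compared with the same vector arrays, taken at 6 h, so that exposure time and transgene differ together at 2 h.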

How the results depend on the processing

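No value reversed direction among the called results. At 2 h the count of called members was 3 to 6 over the alternative settings and 3 to 5 with 1 array left out, and Hk2, Slc2a1 and Gys1 were called in all 17 alternatives. At 6 h over the vector the replicate block gave 1 call (Txnip, -0.38) and leaving out 1 array gave 0 to 1. At 6 h over 2 h a fit of only the 2 groups compared gave 0, and leaving out 1 array gave 1 to 6. At 48 h no filter gave 3, the replicate block 0 and leaving out 1 array 0 to 0, while leaving out the lowest 60% of genes gave 15, adding Ldha, Pdk1 and Pfkp. Gene by gene, counting each member and alternative once, calls were lost in 9 cases at 2 h, 0 at 6 h, 35 at 6 h over 2 h and 71 at 48 h, and gained in 9, 3, 1 and 7. The causes were not tested, beyond the fewer arrays or more genes that these settings have by construction.

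Replicate numbers were not taken as pairs. On Gene 1.0 ST, deviations of same-numbered arrays correlated at -0.26 to 0.24, beside -0.25 to 0.34 for different numbers. At 48 h r was 0.57, from 2 arrays per group, whose deviations mirror each other. With the replicate block, 6, 1, 6 and 0 members were called at 2 h, 6 h, 6 h over 2 h and 48 h. Over all genes, counts were 141 to 276 at 2 h, 480 to 860 at 6 h, 0 to 150 at 6 h over 2 h and 0 to 1948 at 48 h across settings that kept all replicates of the groups compared. Values near the 430 2.0 floor limit what can be said of Slc16a3, Ldhb and Pfkfb4 at 48 h.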
